A study of Mus musculus with 6 samples.

Results

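The SLC25 genes encode the mitochondrial carriers, and their transcripts were read in livers of mice overdosed with acetaminophen (APAP) and of control mice given saline. The members were all genes whose symbol is Slc25a followed by a number. There were 47 of them among the 34745 genes of the table, and 42 had at least 10 counts summed over the libraries and were tested, among 16071 genes in all. The untested members were Slc25a18, Slc25a41 and Slc25a54, with 0 counts in every library, and Slc25a31 and Slc25a43, with at most 1 count in any library. Bulk RNA-Seq was done on livers of WT C57BL/6J mice, described in the study's methods as young adult males, that were fasted for 12 hours and injected with 300 mg/kg APAP or with saline, with 3 livers per group. Livers were analysed 12 hours after APAP, and the labels give no time for saline. Values came from APAP replicates 1 and 3 (replicate 2 was not analysed here) and from 3 libraries named WT1, WT2 and WT3. These last names give no treatment, and they were taken for the saline group since the remaining names are those of APAP.

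Carriers of this family sit in the inner mitochondrial membrane, which is otherwise closed to most charged metabolites, and exchange nucleotides, phosphate, carboxylates, amino acids, coenzymes and metals between the matrix and the cytosol. A few members work elsewhere, in peroxisomes or in the outer mitochondrial membrane. In hepatocytes they serve the urea cycle, gluconeogenesis, fatty acid synthesis and oxidation, and the import of glutathione, the thiol consumed when a reactive metabolite of APAP is detoxified.

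Slc25a30 rose with APAP, and Slc25a16 and Slc25a21 fell. These were the only members with an adjusted p under 0.05 in the quasi-likelihood test of edgeR, adjusted over all genes tested by the Benjamini-Hochberg method, 3 of 42 members (7.14%), where 5.66% of all genes tested passed. The count for the family was thus near that of all genes. The higher member made up 2.38% of those tested, beside 2.91% of all genes, and the lower members 4.76%, beside 2.76%. The 250 bases before the annotated start of these 3 genes are shown because they are the upstream sequences of the members that changed. They are RefSeq sequences of GRCm38.p6, written 5′ to 3′ on the strand of the gene, with capitals for the CCAAT box (CCAAT, or ATTGG on the other strand) and the GC box (GGGCGG, or CCGCCC on the other strand).
Slc25a30 (chr14:75787038-75787287, minus strand): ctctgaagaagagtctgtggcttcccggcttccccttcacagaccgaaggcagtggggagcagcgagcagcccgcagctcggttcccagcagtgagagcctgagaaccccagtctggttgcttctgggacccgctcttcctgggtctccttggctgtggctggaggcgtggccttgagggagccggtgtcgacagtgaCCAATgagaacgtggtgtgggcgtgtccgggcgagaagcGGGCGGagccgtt
Slc25a16 (chr10:62920383-62920632, plus strand): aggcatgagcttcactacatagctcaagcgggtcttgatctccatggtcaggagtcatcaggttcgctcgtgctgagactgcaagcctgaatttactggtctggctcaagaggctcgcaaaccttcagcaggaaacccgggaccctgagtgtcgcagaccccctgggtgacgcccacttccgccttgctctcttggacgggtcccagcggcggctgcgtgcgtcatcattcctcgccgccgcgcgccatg
Slc25a21 (chr12:57197473-57197722, minus strand): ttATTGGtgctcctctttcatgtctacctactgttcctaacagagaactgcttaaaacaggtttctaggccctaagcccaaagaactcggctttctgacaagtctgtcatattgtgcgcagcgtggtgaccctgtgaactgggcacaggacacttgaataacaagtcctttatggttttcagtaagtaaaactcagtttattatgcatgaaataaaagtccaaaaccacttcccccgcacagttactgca
In Slc25a30 a CCAAT box began 52 bases and a GC box 13 bases before the start. The window of Slc25a21 held a CCAAT box 248 bases before the start, and that of Slc25a16 held neither motif. Among the 32851 promoters of this length that were read, 33.8% held a CCAAT box and 32.7% a GC box on either strand.

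The total count was between 13378445 and 15976339 per library. Levels are given as CPM, read counts brought to a common library total with edgeR's TMM factors, which ran from 0.780 (WT1) to 1.28 (APAP replicate 1). Hepatocyte genes such as albumin were high in every library, and 0 of 6 markers passed the test. Their sum was 63879 and 108198 CPM after APAP and between 113399 and 155371 CPM after saline, most of it albumin. Apoa1 had a log2 fold change of 0.57, and the values of the rest ran from -1.64 (Ttr) to -0.64 (Serpina1c). Xist, which is made from the silenced X chromosome, reached at most 1.74 CPM in the APAP libraries and at least 290.4 CPM in the saline libraries, while Ddx3y of the Y chromosome reached at least 62.0 and at most 0.0666 CPM. The saline libraries therefore did not carry the sex-linked expression of the male mice named in the methods, and in every comparison given here treatment and sex-linked expression cannot be told apart. All 7 neutrophil markers passed the test as higher (119 and 76.6 CPM in sum with APAP, 4.58 to 8.33 CPM after saline), and all 4 centrilobular hepatocyte markers passed as lower (954 and 1859 CPM, against 6939 to 11715 CPM). Of the monocyte markers 3 of 5 passed as higher (40.4 and 42.6 CPM, against at most 5.50 CPM). Among the cholangiocyte markers 2 of 5 did, Sox9 and Spp1 (344 and 357 CPM in sum, against 47.2 to 51.8 CPM). Most of this sum was Spp1 (274 and 315 CPM, against 37.6 to 42.6 CPM). Krt19, Krt7 and Epcam did not pass, and each was higher in APAP replicate 1 than in replicate 3 (Krt19, 23.5 and 2.73 CPM). The periportal hepatocyte markers passed as lower in 1 of 4 (773 and 692 CPM, against 1532 to 2253 CPM). In bulk liver, fewer cells of a type and less RNA per cell cannot be told apart, and the part of these cell types in the values of the carriers was not tested.

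**Figure D1:**
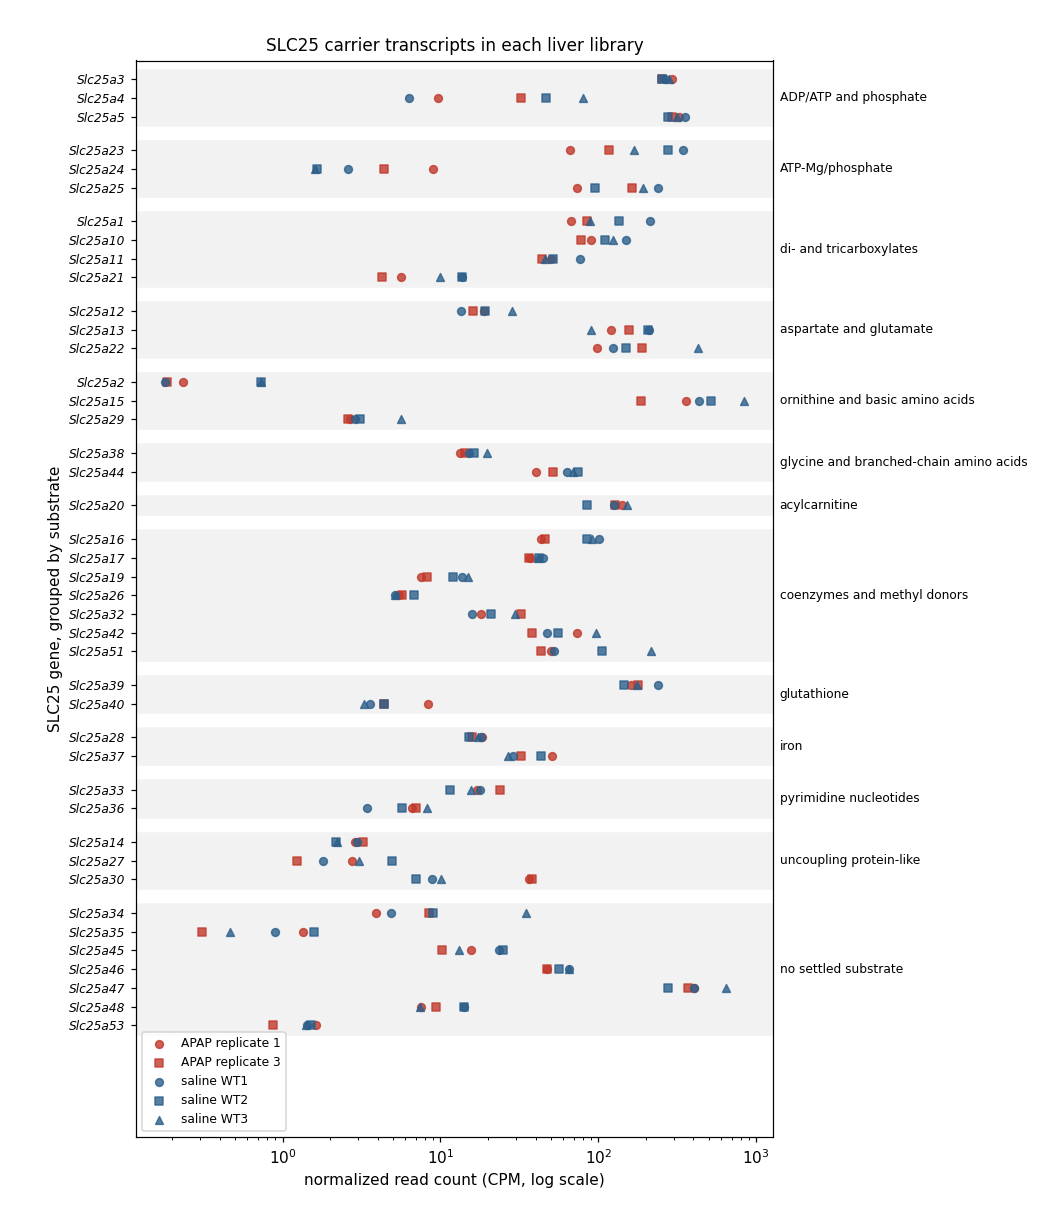
Normalized read count (CPM, log scale) of the 42 tested SLC25 genes, grouped by substrate, with 1 point per library (red, APAP replicates 1 and 3; blue, saline WT1, WT2 and WT3). The APAP points of Slc25a30 lie well to the right of the saline points, and those of Slc25a16 and Slc25a21 to the left.

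Across the family, the summed level of all members was 2803 and 2780 CPM after APAP and 3772, 3280 and 4467 CPM in WT1, WT2 and WT3. Both APAP libraries lay below all saline libraries on this scale, while as a share of the raw counts, without TMM, the groups overlapped (0.359% and 0.302% with APAP, 0.294%, 0.322% and 0.420% with saline). The median log2 fold change of the members was -0.29, beside 0.05 over all genes tested. With library size only in place of TMM the medians were 0.12 and 0.44, so the members' median lay below that of all genes under both scalings. Of the 42 members, 31 (73.8%) had a fitted log2 fold change under 0, as had 47% of all genes. In 16 members (38.1%) no APAP library fell within the range of the saline libraries or the reverse, as in 41.5% of all genes tested. In 13 of these members (31%) APAP was lower, beside 18.4% of all genes, and in 3 (7.14%) it was higher, beside 23.1%. At a fold change of 1.5 with an unadjusted p under 0.05, 11 members passed (26.2%), beside 21.8% of all genes. Of these, 2 were higher (4.76%, beside 11.9%) and 9 lower (21.4%, beside 9.91%).

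**Figure D2:**
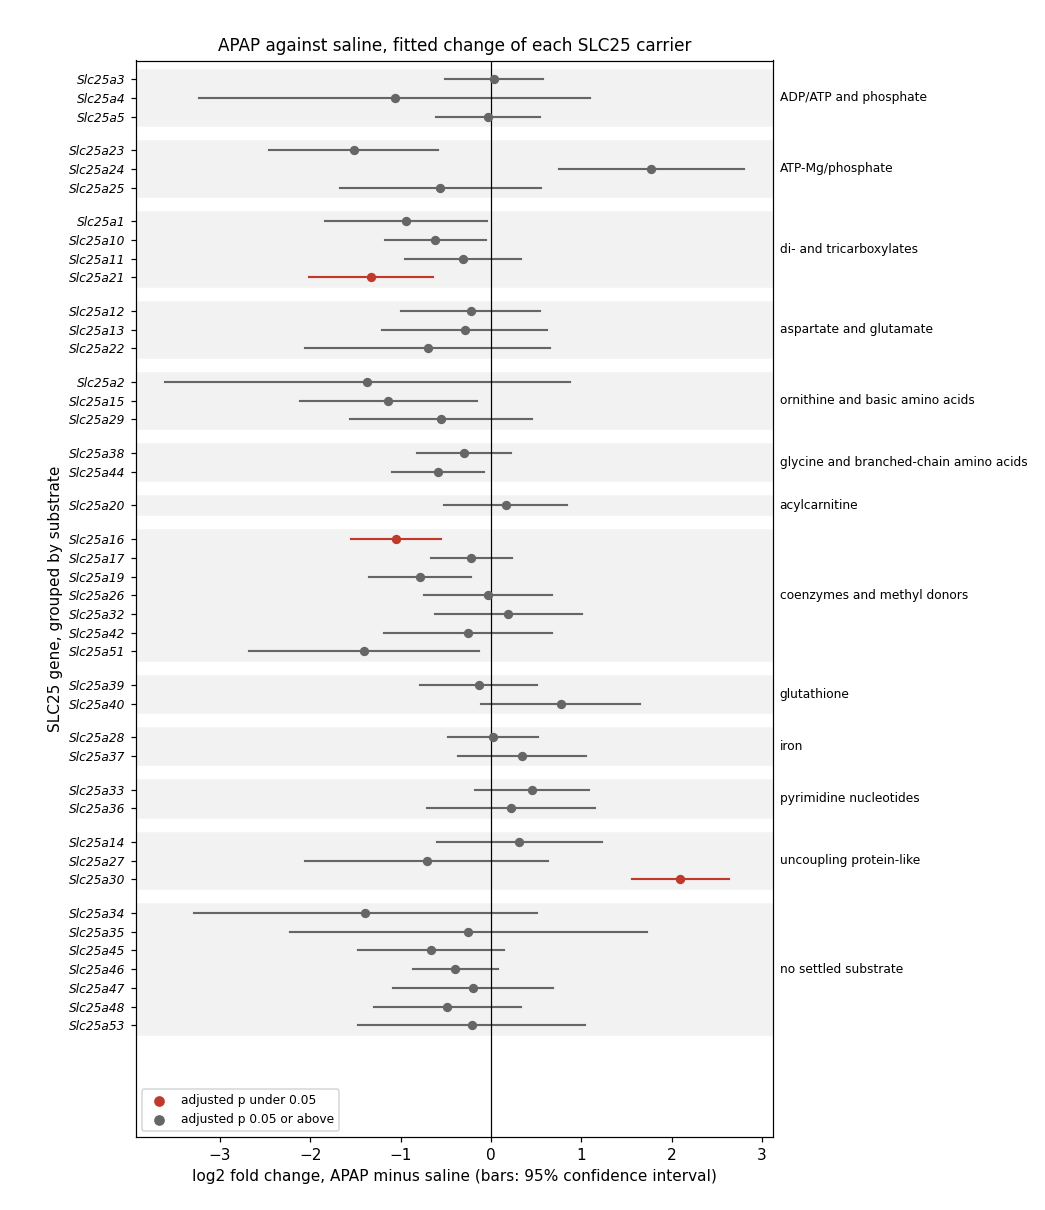
Fitted log2 fold change of each tested member (APAP minus saline, points) with its 95% confidence interval (bars), grouped by substrate, with members at an adjusted p under 0.05 in red. Slc25a30 at 2.10 is the highest and Slc25a23 at -1.52 the lowest value.

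Among the carriers related to the uncoupling proteins, Slc25a30 was the member that passed the test. It encodes kidney mitochondrial carrier protein 1 and lies on chromosome 14 (75761999 to 75787037, minus strand, GRCm38), with 10 exons in its longest transcript. Slc25a30 stood at 36.5 and 37.8 CPM in APAP replicates 1 and 3 and at 8.90, 7.03 and 10.1 CPM in WT1, WT2 and WT3. The APAP libraries lay close together and far above every saline library. This was a 4.28-fold higher mean level, with a log2 fold change of 2.10 ± 0.23 (SE, n = 2 and 3) and an adjusted p of 0.00442 in edgeR's quasi-likelihood test. Per kilobase of exon it moved from rank 32 to rank 22 among the 47 members. It passed under all 14 alternative analyses, with log2 fold changes between 1.96 and 2.49. The other members of the group, Slc25a14 and Slc25a27, encode carriers known from brain. They were at 1.24 to 4.91 CPM, with overlapping groups. The uncoupling proteins themselves have other symbols and were counted with the partner genes below. Ucp2 was at 35.9 and 40.2 CPM after APAP and at 28.8, 18.4 and 29.7 CPM after saline, without overlap. Its log2 fold change was 0.57 ± 0.26 (adjusted p = 0.245 in edgeR's quasi-likelihood test). Ucp1 had 0 counts in every library, and Ucp3 was at most 3.93 CPM, with overlapping groups.

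The carriers of coenzymes and methyl donors held the decrease with the smallest adjusted p. Slc25a16, which is tied to coenzyme A in the matrix (chromosome 10, 62920633 to 62946498, plus strand), was at 43.5 and 46.1 CPM after APAP and at 102, 84.2 and 91.7 CPM in WT1, WT2 and WT3. The groups were well apart and tight. Its APAP mean was 48.4% of the saline mean, a log2 fold change of -1.05 ± 0.21 (SE, n = 2 and 3; adjusted p = 0.0365 in edgeR's quasi-likelihood test). The call was lost with library size only (-0.65, adjusted p = 0.0998) and when any of the 5 libraries was left out, with adjusted p between 0.0542 (without WT3) and 0.225 (without APAP replicate 1), while the log2 fold change stayed between -1.11 and -0.96. Slc25a51, the carrier of NAD, was at 50.4 and 43.5 CPM after APAP and at 52.7, 105 and 216 CPM after saline. WT1 lay just above the APAP libraries and WT3 far above them. The log2 fold change of Slc25a51 was -1.41 ± 0.54, with an adjusted p of 0.181 in edgeR's quasi-likelihood test, and it was -0.75 without WT3. Of the 7 members of this group, 6 had a fitted value under 0, beside 73.8% of the family and 47% of all genes. In 4 the APAP libraries were lower without overlap, as in 31% of the family and 18.4% of all genes. The test called 1 of the 7 lower, beside 2.76% of all genes, so these small counts are only a description. The fitted values of the group ranged from -1.41 to 0.19.

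All 4 carriers of di- and tricarboxylates had fitted values under 0, from -1.33 to -0.30, and 1 of them passed the test. In the family 73.8% of members had a value under 0, and 47% of all genes did, while 2.76% of all genes passed as lower. Slc25a21 exchanges oxoadipate, an intermediate of lysine and tryptophan breakdown, and lies on chromosome 12 (56712634 to 57197472, minus strand). Slc25a21 was at 5.60 and 4.28 CPM after APAP and at 13.7, 13.7 and 9.92 CPM in WT1, WT2 and WT3. The groups did not overlap, although the level was low in both. Its APAP mean was 39.8% of the saline mean, and the log2 fold change was -1.33 ± 0.29 (SE, n = 2 and 3; adjusted p = 0.0464 in edgeR's quasi-likelihood test). The adjusted p rose to 0.0573 with upper-quartile factors and 0.136 with library size only, and to 0.160, 0.192, 0.108 and 0.172 without APAP replicate 1, APAP replicate 3, WT1 and WT2. It was 0.0406 without WT3. Slc25a1, the citrate carrier that feeds cytosolic fatty acid synthesis, was at 66.7 and 84.3 CPM after APAP and at 212, 134 and 88.3 CPM after saline. APAP replicate 3 lay just under WT3, and WT1 was high. Its log2 fold change was -0.94 ± 0.38 (adjusted p = 0.200 in edgeR's quasi-likelihood test), and it was -0.55 without WT1. The level of Slc25a10, which exchanges malate and succinate for phosphate, was 89.3 and 78.1 CPM against 109.9 to 150.0 CPM, and that of the oxoglutarate carrier Slc25a11 was 50.3 and 43.7 CPM against 46.0 to 76.8 CPM.

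The calcium-regulated exchangers of ATP-Mg for phosphate, which set the adenine nucleotide content of the matrix, held both the lowest fitted value of the family and its second highest, and neither passed the test. Slc25a23 was at 66.2 and 117 CPM after APAP and at 343, 275 and 169 CPM in WT1, WT2 and WT3. Both groups were spread widely but did not overlap. The log2 fold change was -1.52 ± 0.40, with an adjusted p of 0.0742 in edgeR's quasi-likelihood test, and the value passed in 5 of 14 alternatives, including DESeq2 (adjusted p = 0.00218) and the quasi-likelihood test without WT3 (0.0410). Per kilobase, Slc25a23 went from rank 6 to rank 12 in the family. Slc25a24, a paralog known from dividing cells, was at 8.93 and 4.41 CPM after APAP and at 2.61, 1.66 and 1.60 CPM after saline. The order of levels was thus opposite to that of Slc25a23, again without overlap and at a far lower level. Its log2 fold change was 1.78 ± 0.44 (adjusted p = 0.0624 in edgeR's quasi-likelihood test), with 6 of 14 alternatives under 0.05, and it was 1.18 (adjusted p = 0.381) without APAP replicate 1. The third paralog, Slc25a25, was at 73.4 and 164 CPM after APAP and at 239 and 193 CPM in WT1 and WT3, with WT2 between the APAP libraries. Slc25a41 and Slc25a54 had 0 counts in all 5 libraries.

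The amino acid carriers did not pass the test. Slc25a15 brings ornithine into the matrix for the urea cycle, and it was at 359 and 186 CPM after APAP and at 436, 520 and 840 CPM in WT1, WT2 and WT3. The APAP libraries lay below all saline libraries, and the libraries within each group differed widely. The log2 fold change was -1.13 ± 0.42 (adjusted p = 0.164 in edgeR's quasi-likelihood test), and DESeq2 gave an adjusted p of 0.0357. The value moved to -0.74 when APAP replicate 3 was left out and to -1.68 when replicate 1 was. Slc25a2, the second ornithine carrier, was near the floor of 3 counts, at 0.233 and 0.186 CPM after APAP and 0.180, 0.729 and 0.733 CPM after saline, so its fitted value of -1.37 ± 0.96 rests on few reads. Slc25a44, a carrier of branched-chain amino acids, was at 40.5 and 51.4 CPM after APAP and at 63.4, 74.5 and 69.3 CPM after saline. It had a log2 fold change of -0.59 ± 0.22, without overlap (adjusted p = 0.167 in edgeR's quasi-likelihood test), which was -0.22 with library size only.

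Among carriers of aspartate and glutamate, the 3 tested members had fitted values between -0.70 and -0.22 and overlapping groups. Slc25a22, which carries glutamate with a proton, was at 98.5 and 189 CPM after APAP and at 123, 149.7 and 428 CPM after saline. WT3 was far above the rest, and the log2 fold change of -0.70 ± 0.58 (adjusted p = 0.532 in edgeR's quasi-likelihood test) became 0.077 without WT3. Slc25a13, the aspartate and glutamate carrier of liver that serves the malate-aspartate shuttle, was at 121 and 156 CPM after APAP and between 90.5 and 210.3 CPM after saline. Its paralog Slc25a12, known from brain and muscle, was at 16.1 and 18.8 CPM after APAP and between 13.5 and 28.6 CPM after saline. Slc25a18 had 0 counts in every library.

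Carriers of adenine nucleotides and phosphate for ATP synthesis gave no call. The liver isoform of the ADP/ATP translocase, Slc25a5, was at 325 and 294 CPM after APAP and at 355, 276 and 316 CPM in WT1, WT2 and WT3. The groups overlapped, with a log2 fold change of -0.03 (95% confidence interval, -0.60 to 0.54), which was 0.38 with library size only. Of the 50-base words of its longest transcript, 46.6% occur in transcripts of other genes, with Gm5560 the closest, so its count is uncertain. Slc25a5 is X-linked, as are Slc25a14 and Slc25a53. The muscle and heart isoform Slc25a4 was at 9.68 and 32.5 CPM after APAP and at 6.29, 46.3 and 79.5 CPM after saline. Its 2 low libraries came from different groups. The log2 fold change of Slc25a4 was -1.06 ± 0.92 (adjusted p = 0.550 in edgeR's quasi-likelihood test). It ran from -2.19 without APAP replicate 3 to -0.44 without APAP replicate 1 and -0.33 without WT3. The summed level of the 4 skeletal muscle genes Acta1, Ckm, Mylpf and Tnnt3 was 0.408 and 273 CPM in APAP replicates 1 and 3 and 1.44, 447 and 752 CPM in WT1, WT2 and WT3, in the same order as Slc25a4 apart from the lowest pair. Between APAP replicate 1 and WT1, where these genes were near 0, the log2 ratio of Slc25a4 was 0.62, a value with no test that was added after the data were seen. For the called members Slc25a30, Slc25a16 and Slc25a21 the same ratio was 2.03, -1.22 and -1.28. Where the groups do not overlap, as in these members, the sign of the ratio was fixed in advance. The ratio was far smaller than the fitted value for Slc25a15 (-0.28), Slc25a51 (-0.063) and Slc25a34 (-0.31). It was of the other sign for Slc25a2 (0.30), and larger in size for Slc25a23 (-2.37) and Slc25a1 (-1.67). For Slc25a15, Slc25a51 and Slc25a2, APAP replicate 1 was the higher APAP library and WT1 the lowest saline library. No other pair of libraries could give them a higher ratio. For Slc25a23 and Slc25a1 the order was the reverse, and no other pair could give a lower ratio. The size of the ratio in these members thus followed from the pair chosen. APAP replicate 1 and WT1 differ in more than muscle genes, with TMM factors of 1.28 and 0.780. The part of muscle RNA in these values was not tested.

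**Figure D3:**
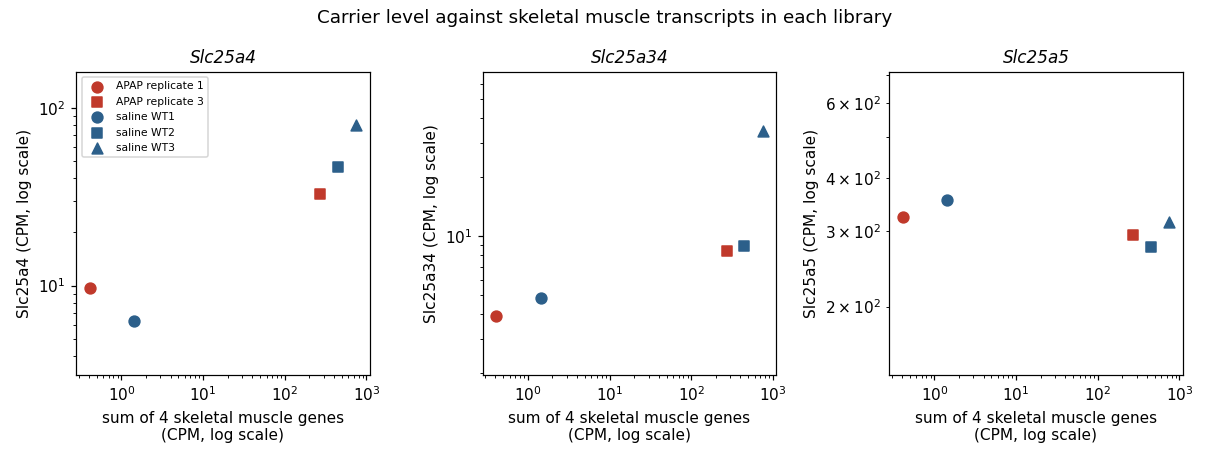
CPM of Slc25a4, Slc25a34 and Slc25a5 (vertical axes, log scale) against the summed CPM of 4 skeletal muscle genes (horizontal axes, log scale), with 1 point per library (red, APAP; blue, saline). Slc25a4 ranges from 6.29 to 79.5 CPM and is high in the 3 libraries with high muscle genes, while Slc25a5 stays between 276 and 355 CPM.

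Glutathione enters the matrix through Slc25a39 and Slc25a40. Slc25a39 was at 162 and 179 CPM after APAP and at 239, 146 and 176 CPM after saline. The groups overlapped, and the log2 fold change was -0.14 ± 0.28 (adjusted p = 0.821 in edgeR's quasi-likelihood test), with a 95% confidence interval of -0.78 to 0.51 and a sign that turned with library size only (0.28). Slc25a40 was at 8.40 and 4.41 CPM after APAP and at 3.60, 4.38 and 3.26 CPM after saline. Only APAP replicate 1 stood out, and APAP replicate 3 was barely above WT2. The log2 fold change of 0.77 ± 0.38 (adjusted p = 0.279 in edgeR's quasi-likelihood test) was 0.23 without APAP replicate 1.

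Fatty acyl groups cross the inner membrane as acylcarnitines through Slc25a20, which was at 142 and 128 CPM after APAP and at 125, 84.1 and 152 CPM after saline. The groups overlapped, with a log2 fold change of 0.16 (95% confidence interval, -0.52 to 0.84). Slc25a37, a carrier of iron for heme and iron-sulfur clusters, was at 51.1 and 32.2 CPM after APAP and at 28.8, 43.2 and 26.8 CPM after saline. Its fitted value of 0.34 ± 0.30 (adjusted p = 0.562 in edgeR's quasi-likelihood test) became -0.035 without APAP replicate 1. The other iron carrier, Slc25a28, was between 15.1 and 18.4 CPM in all 5 libraries, with a 95% confidence interval of the log2 fold change from -0.47 to 0.52. For the pyrimidine nucleotide carrier Slc25a33 the level was 17.1 and 23.8 CPM after APAP and 17.8, 11.5 and 15.5 CPM after saline. The groups overlapped, and the log2 fold change was 0.45 ± 0.27 (adjusted p = 0.374 in edgeR's quasi-likelihood test), with 0.19 without APAP replicate 3, 0.29 without WT2 and 0.85 with library size only.

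The 7 tested members with no settled substrate had fitted values from -1.39 to -0.20, and none passed the test. Slc25a47, a carrier expressed almost solely in liver, was at 402 and 368 CPM after APAP and at 404, 275 and 645 CPM after saline. WT3 was the highest and WT2 the lowest library. The log2 fold change of -0.20 ± 0.38 (adjusted p = 0.808 in edgeR's quasi-likelihood test) turned to 0.20 with library size only and to 0.18 without WT3. Slc25a34 was at 3.91 and 8.44 CPM after APAP and at 4.85, 8.95 and 34.6 CPM after saline. Only WT3, the library with the highest skeletal muscle sum, stood out, and the log2 fold change of -1.39 ± 0.81 (adjusted p = 0.363 in edgeR's quasi-likelihood test) was -0.17 without it. The part of muscle RNA in this value was not tested.

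Per kilobase of exon, the saline order of the family began with Slc25a5 (192 ± 23.9 CPM per kb, SD, n = 3), Slc25a47 (148 ± 62.8), Slc25a15 (106 ± 37.9), Slc25a39 (67.9 ± 17.2) and Slc25a1 (67.0 ± 28.9). Each of these neighbours differed by less than the sum of their SDs. With APAP, Slc25a5 and Slc25a47 were again ranked 1 and 2, at 188 ± 12.9 and 129 ± 8.18 CPM per kb (SD, n = 2), and Slc25a15 was ranked 5 at 48.5 ± 21.7 CPM per kb. Slc25a51 went from rank 13 to rank 21.

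Ratios between related carriers within a library do not depend on the scaling between libraries. Of 10 such pairs, 8 had overlapping groups. Among all genes tested, taken singly, 41.5% had groups that did not overlap, and no share over other gene pairs was computed. The log2 ratio of Slc25a24 to Slc25a25 was on average -4.12 ± 1.54 (SD, n = 2) with APAP and -6.40 ± 0.54 (SD, n = 3) with saline, a difference of 2.27 without overlap, and leaving out APAP replicate 1 or 3 gave 1.18 or 3.36. Slc25a24 had fewer counts than Slc25a25 in every library. For Slc25a10 to Slc25a11 the log2 ratio was 0.83 ± 0.01 with APAP and 1.17 ± 0.24 with saline, also without overlap, and the difference of -0.33 was -0.20 without WT3. The ratio of Slc25a23 to Slc25a25 differed by -0.94, and that of Slc25a16 to Slc25a42, both tied to coenzyme A, by -0.79, in each case with overlap. The first was -0.49 without WT2, and the second was -0.27 without APAP replicate 1, -0.51 without WT1 and -1.30 without APAP replicate 3. No test was run on the ratios, since an exact permutation of 2 and 3 libraries cannot reach 0.05.

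**Figure D4:**
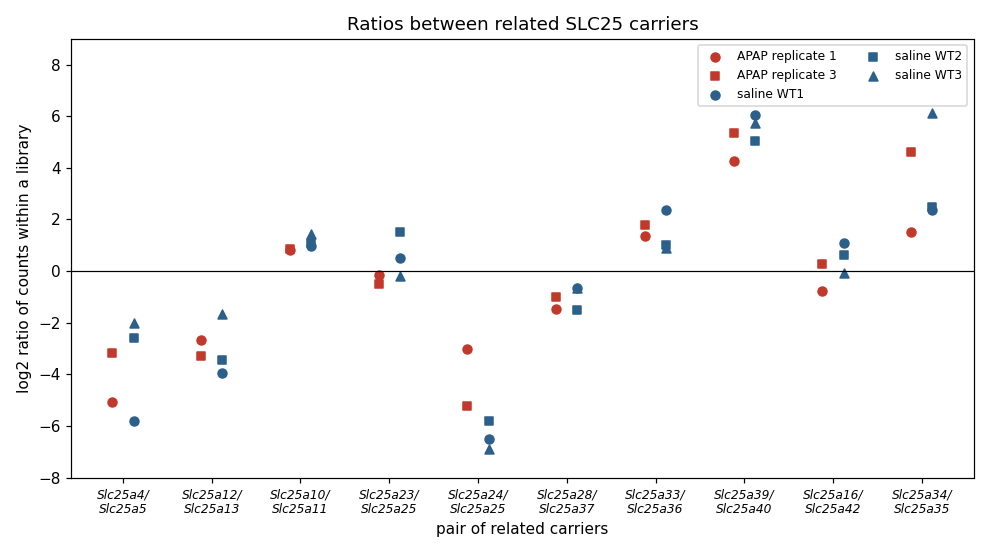
Log2 ratio of the counts of 10 pairs of related carriers in each library (red, APAP replicates 1 and 3; blue, saline WT1, WT2 and WT3). The APAP and saline points are apart for Slc25a24/Slc25a25 and Slc25a10/Slc25a11 and overlap in the other pairs.

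The carriers were set beside 37 names of partner genes of mitochondrial transport. Of these, 35 were found among the genes measured (not Tomm70 or Timm29), and 34 were tested. None passed as higher and 3 as lower, where 2.91% and 2.76% of all genes tested passed, and their median log2 fold change was -0.11, beside 0.05 over all genes. Mtch1, a family member of the outer mitochondrial membrane, was at 21.6 and 28.3 CPM after APAP and at 52.5, 62.1 and 51.7 CPM after saline (log2 fold change -1.15 ± 0.23, adjusted p = 0.0345 in edgeR's quasi-likelihood test). Sfxn2 and Sfxn5, which belong to the sideroflexins, a family that includes the mitochondrial serine carrier, had log2 fold changes of -1.10 ± 0.21 and -1.19 ± 0.25 (adjusted p = 0.0301 and 0.0429 in edgeR's quasi-likelihood test). In these 3 genes the groups did not overlap, and none of them passed with library size only or without APAP replicate 1, APAP replicate 3 or WT2. Without WT1, Sfxn2 alone passed. Pyruvate carriers, the calcium uniporter, porins, inner membrane ABC transporters, genes of carrier import and shuttle enzymes gave no other call in this test. Got1, Mdh1 and Mpc2 had log2 fold changes of -2.17, -1.06 and -0.99, without overlap. Their adjusted p was 0.0574, 0.0782 and 0.0651 in edgeR's quasi-likelihood test. They passed in the likelihood ratio test, the exact test and DESeq2, but not with library size only.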

How the data were processed

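Bulk RNA-Seq of mouse liver was analysed from 5 libraries. The deposited values are raw counts of reads per gene, which the authors made from HISAT2 alignments. The submitters' notes name GRCm38 and mm10, and strand setting and annotation are not given in the sources used here. The 5 columns of FPKM were not used. All 47 members were found in GENCODE M21, 37 with identical coordinates. Genes with at least 10 summed counts were tested with edgeR 4.0.16 (R 4.3.3; TMM, glmQLFit, glmQLFTest, Benjamini-Hochberg). The code was also run on simulated counts with the same dispersion for every gene. That run does not show how the test behaves on the spread of these libraries. DESeq2 1.42.0, edgeR's other tests, other factors and filters, each library left out and, added later, a block on the number in the library names were alternatives. Lone libraries left in a group were assumed to vary like the other group. The common dispersion was 0.123. The labels do not tie each library to an animal of its own, so p-values measure the spread between these libraries. A count of 3, taken as the floor, corresponded to 0.175 to 0.270 CPM, for counting error only, since reads carry no molecular identifiers. Exon lengths and 50-base words came from GENCODE M21. Members named in full were those passing the test and, in each of 13 substrate groups, those with the highest mean CPM and the largest change. This mean CPM was not divided by exon length. Per kilobase, Slc25a13 was above Slc25a22 with APAP and with saline. Other genes named stand for a pair of paralogs, a partner that passed, or a group. Members, groups and lists were chosen with earlier results of these data known. Figures were drawn with matplotlib 3.10.9.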

Additional observations from a re-analysis of the deposited data

How the results depend on the processing

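Slc25a30 passed under all 14 alternatives without a block. The members called higher were 2 in place of 1, with Slc25a24 added, in the likelihood ratio test, the exact test, DESeq2, with library size only, with 1 count in any library and with 10 counts in every library, and 2 at the unadjusted threshold. The members called lower were 3, with Slc25a23 added, in the likelihood ratio test, the exact test and with 1 count in any library. They were 5 with DESeq2, 1 with upper-quartile factors, 9 at the unadjusted threshold, and 0 to 2 with a saline library left out. With library size only they were 0, where 7 members had an unadjusted p under 0.05 in either direction. All genes called were 1951, 1814 and 2068 in the likelihood ratio test, the exact test and DESeq2, 1402 with 1 count in any library, 3507 at the unadjusted threshold, and 168 (without WT2) to 881 with a library left out. Partner genes called were 6, 6 and 8 in the 3 other tests, 0 with library size only, 5 with 10 counts in every library, 9 at the unadjusted threshold, and 0 to 3 with a library left out. With library size only the share of called genes that were higher went from 51.3% to 77.5%, and the log2 fold changes of Slc25a5, Slc25a39 and Slc25a47 were 0.38, 0.28 and 0.20. Slc25a1, Slc25a15 and Slc25a22 were then at -0.52, -0.72 and -0.37, and Slc25a20, Slc25a37 and Slc25a40 at 0.57, 0.74 and 1.19. With a library left out, Slc25a5, Slc25a39 and Slc25a47 ranged from -0.12 to 0.075, -0.29 to 0.090 and -0.45 to 0.18, Slc25a37 and Slc25a20 from -0.035 to 0.63 and -0.042 to 0.37, and Slc25a22 from -1.25 to 0.077. Of 279 values of named members, 245 kept direction and side of the threshold, 12 lost and 12 gained a call and 10 changed sign. Fewer libraries were tested where 1 was left out, and otherwise the cause was not tested. The labels do not tie the saline libraries to numbered samples, so a pairing is not shown. A replicate block on the number in the library names, added after the data were seen, rests on 2 pairs, whose deviations from the group means correlated by 0.126 and 0.105 across genes. Under this block 488 genes were called, with 1 member higher (Slc25a30, adjusted p = 0.0119 in edgeR's quasi-likelihood test), 0 members lower and 0 partner genes, beside 7 members and 8 partner genes with an unadjusted p under 0.05, and Slc25a20 was -0.034. The number of libraries and the biological coefficient of variation of 35.1% limit what could be called.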

Other observations

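The promoters of the family were read as a set in the 250 bases before the start, for 36 members with a RefSeq entry on the chromosomes used. Their median GC content was 58.6%, beside 52.4% over 32851 promoters. A GC box (GGGCGG on either strand) was present in 24 of 36 (66.7%), beside 32.7% of all promoters, and an E-box (CACGTG) in 6 (16.7%), beside 6.02%. A TATA box (TATAAA) was found in 1 member (2.78%), beside 12.4%. Each member gave 1 promoter, the one nearest its gene start. Neither that choice nor the one of chromosomes was applied to the 32851 promoters, so the sets were not made alike. These shares are a description, and no test was run on them. Slc25a5 and Slc25a43 lie 18448 bases apart on chromosome X. Slc25a43 had 1 count in all, in WT1, while Slc25a5 was among the most abundant carriers.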
